A study of Mus musculus with 6 samples.

Results

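The genes described here are 10 RNAs that mark the blood monocyte subsets of the mouse, read across 5 myeloid classes of brain immune cells. The members were listed by name. Ly6c2, Chil3, Plac8, Vcan and Ms4a4c mark classical monocytes, and Ace, Treml4, Spn, Eno3 and Ear2 mark nonclassical monocytes. All 10 were among the 19848 genes of the deposited RNA table. The classes were the authors' own, called Ly6CHigh (389 cells), Ly6CLow (634), Ly6C+Ly6G+ (352), BAM (border-associated macrophages, 506) and Microglia (9403), out of 13052 cells.

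The study profiled whole-brain immune cells of female C57BL/6 mice by CITE-seq, a droplet method that counts transcripts and barcoded antibodies together in single cells. Mice were perfused, and mononuclear cells were enriched on a density gradient. There were 4 groups of 6 mice: young (12 weeks) or aged (72 weeks), each given vehicle (control) or antibiotics that deplete the gut microbiota. The 24 brains were combined into 12 pools, 3 per group, and the pool was the replicate throughout. All mice shared strain and sex, and the labels name no transgene or deletion. The 10x instrument ran young and aged pools in separate wells, which means that age and well cannot be told apart, and control pools carried hashtags 1 to 3 and antibiotic pools hashtags 4 to 6, so arm and hashtag cannot be told apart either.

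Monocytes circulate in subsets. Classical monocytes carry high Ly6C and the chemokine receptor CCR2 and enter inflamed tissue, where they can become macrophages or dendritic cells. Nonclassical monocytes carry low Ly6C, depend on the nuclear receptor NR4A1, patrol the vessel wall and can arise from classical monocytes. In the brain both are found mainly in vessels, meninges and choroid plexus, while microglia and border-associated macrophages are resident cells that share some surface proteins with them.

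Each of the 5 classical members lies on a chromosome of its own in the RefSeq annotation of GRCm38.p6: Ly6c2 on chromosome 15, Chil3 on 3, Plac8 on 5, Vcan on 13 and Ms4a4c on 19. Of the nonclassical members, Ace and Eno3 share chromosome 11, at 105967948 to 105989964 and 70653125 to 70662513, and Treml4, Spn and Ear2 lie on 17, 7 and 14. All 10 are protein-coding genes with a promoter window in the RefSeq table. The 250 bases before the annotated gene start are shown for 1 classical member, Chil3 (chr3:106167565-106167814, minus strand), and for 2 nonclassical members whose levels moved together over pools and classes, Ace (chr11:105967698-105967947, plus strand) and Ear2 (chr14:44102404-44102653, plus strand). Each is printed 5′ to 3′, and capitals mark matches to the motifs searched.
Chil3: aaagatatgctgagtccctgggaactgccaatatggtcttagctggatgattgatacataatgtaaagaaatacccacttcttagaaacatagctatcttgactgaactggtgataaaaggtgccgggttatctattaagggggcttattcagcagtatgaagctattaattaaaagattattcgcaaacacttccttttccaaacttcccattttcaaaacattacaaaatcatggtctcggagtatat
Ace: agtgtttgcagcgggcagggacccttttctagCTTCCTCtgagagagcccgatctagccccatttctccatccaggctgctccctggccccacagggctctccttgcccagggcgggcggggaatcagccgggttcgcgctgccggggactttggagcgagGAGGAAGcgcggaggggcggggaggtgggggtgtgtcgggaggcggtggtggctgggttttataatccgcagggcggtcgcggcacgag
Ear2: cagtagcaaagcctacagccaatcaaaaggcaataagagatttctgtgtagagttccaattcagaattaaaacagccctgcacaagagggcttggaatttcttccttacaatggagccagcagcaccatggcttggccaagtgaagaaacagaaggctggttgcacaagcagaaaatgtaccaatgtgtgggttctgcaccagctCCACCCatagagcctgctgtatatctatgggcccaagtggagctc
The motifs were searched on both strands of the 250-base window of the RefSeq promoter table, in all 10 members and in 27018 promoters. Only for Chil3, Ace and Ear2 did this window end at the annotated gene start. For the other members it ended at another start, the one used by the promoter table. The PU.1 word GAGGAAG was found in Ace (from positions -218 and -89, counted back from the end of the window) and Ly6c2 (from -108). These were 2 of 10 members, and the word was in 10.4% of all promoters. The KLF word CCACCC was found in 6 of 10 members (Plac8, Vcan, Ms4a4c, Spn, Eno3 and Ear2, the last from -45) and in 27.7% of all promoters. The C/EBP word TTGCNNCAA, the NR4A word AAAGGTCA and an IRF word (a repeat of GAAA with a gap of any bases) were in 0 of 10 members, and in 1.78%, 1.31% and 3.04% of all promoters. These words are descriptions of the letters in this window and say nothing about factors that act elsewhere. The antibody that reads the Ly6C protein carried this barcode, the oligonucleotide counted as the Ly6C tag.
Ly6C antibody barcode: AAGTCGTGAGGCATG

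RNA values were the corrected UMI values of SCTransform per cell, averaged over the cells of a class in a pool. These values are adjusted for the depth of each cell, though not to equal totals, and are not raw counts. Pools with fewer than 10 cells of a class were left out, which removed young antibiotic pool 2 in Ly6CHigh (6 cells) and young antibiotic pool 2 (8), aged control pool 1 (7) and aged antibiotic pool 2 (8) in Ly6C+Ly6G+. Depth differed within the classes. The median raw UMI total of Ly6CHigh cells was 13257.5 in the young well and 951 in the aged well, and 54.7% of aged against 1.41% of young Ly6CHigh cells held under 2000 UMIs. In Ly6CLow the medians were 11367.5 and 7274, and in Microglia 6809 and 7118. After the adjustment the median total of Ly6CHigh cells was still 8091.5 in the young and 4903 in the aged well. Aged Ly6CHigh cells under 2000 raw UMIs averaged 2.29 for Ly6c2 and 5.12 for Chil3. Those with at least 2000 averaged 13.7 and 61.8. A total of 59 cell barcodes occurred in both wells.

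The labelled classes were checked against their defining genes. The microglial genes P2ry12 and Tmem119 averaged 10.6 and 8.09 per cell in Microglia and 0.923 and 0.697 in Ly6CHigh. The macrophage receptor gene Mrc1 averaged 6.19 in BAM and at most 0.669 in the other 4 classes. Ly6g, the neutrophil surface gene, averaged 5.69 in Ly6C+Ly6G+ and at most 0.0566 in the other 4. The 10 neutrophil markers summed to 2333 per cell in Ly6C+Ly6G+, led by S100a9 (1041), so this class carried a neutrophil profile. In Ly6CLow the 10 genes listed as dendritic markers summed to 199, against 25.3 in Ly6CHigh, and most of this sum was Cd74 (142). The same markers summed to 172 in BAM, also led by Cd74 (123), so this was not particular to Ly6CLow. A sum led by 1 gene that BAM shared does not by itself name cells as dendritic, here or in the clusters below. Because the authors' classes may have been made from the same RNA and tags, levels between classes are a description with no test.

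All 5 classical members were highest in Ly6CHigh. Ly6c2, which encodes the protein that gives the class its name, averaged 10.5 ± 3.22 in Ly6CHigh (mean ± SD over 11 pools), 4.13 ± 1.39 in Ly6C+Ly6G+ (9 pools) and 0.429 ± 0.295 in Ly6CLow (12 pools). Each of these steps was larger than the SD over pools. BAM (0.0463) and Microglia (0.0343) followed and did not differ beyond their spread. A value above 0 was found in 68.4% of Ly6CHigh cells (median 10339 raw UMIs) and in 1.73% of Microglia (6934), which should lack the RNA.

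Chil3, which encodes the secreted chitinase-like protein Ym1, averaged 40.3 ± 16.4 in Ly6CHigh and 32.4 ± 20.3 in Ly6C+Ly6G+, 2 values that did not differ beyond their spread. It was 1.36 ± 1.25 in Ly6CLow, 0.159 in Microglia and 0.075 in BAM. Plac8, a small cysteine-rich protein, averaged 19.1 ± 6.83 in Ly6CHigh, 2.99 ± 1.00 in Ly6CLow and 2.56 ± 1.44 in Ly6C+Ly6G+, the last 2 being alike within their spread. Plac8 was also the classical member detected most often in Ly6CLow apart from Ms4a4c, above 0 in 27.4% of its cells.

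Vcan, the matrix proteoglycan versican, was the member most restricted to Ly6CHigh, with 1.32 ± 0.726 there and 0.0308 ± 0.0493 in Ly6CLow, the next class in order, a 42.7-fold step. Its pools ran from 0.429 to 2.29 in Ly6CHigh and from 0 to 0.167 in Ly6CLow, so they did not overlap. Ms4a4c, a membrane protein of the MS4A family, was the classical member with the smallest step to Ly6CLow, 2.80 ± 1.24 against 0.887 ± 0.392. It was also the classical member that BAM carried, at 0.442 ± 0.135 per cell and above 0 in 27.7% of BAM cells, against 2.39% of Microglia at 7610.5 and 6934 median UMIs.

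The nonclassical members were highest in Ly6CLow but low on average and less separated. Ace, the angiotensin-converting enzyme, averaged 0.814 ± 0.255 in Ly6CLow, 0.541 ± 0.445 in Ly6C+Ly6G+ and 0.471 ± 0.460 in Ly6CHigh, with no neighbouring pair beyond its spread. Treml4, a receptor of the TREM family, gave the same order with 0.584, 0.447 and 0.277, again within the spread. Spn, the sialoprotein CD43, averaged 1.05 ± 0.212 in Ly6CLow against 0.693 ± 0.345 in Ly6C+Ly6G+, a difference larger than the spread.

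Eno3, the muscle form of the glycolytic enzyme enolase, averaged 0.614 ± 0.265 in Ly6CLow, 0.307 ± 0.217 in Ly6C+Ly6G+ and 0.155 ± 0.189 in Ly6CHigh. It was the only nonclassical member above 0.05 in Microglia, at 0.106 ± 0.0157 and above 0 in 9.27% of their cells. Ear2, a ribonuclease of the eosinophil-associated family, was the most abundant nonclassical member by these values, at 2.39 ± 1.31 in Ly6CLow, 0.942 ± 0.498 in Ly6C+Ly6G+ and 0.852 ± 0.725 in Ly6CHigh. Values of different genes were not calibrated against each other, so their order within a class is no order of transcript number.

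**Figure D1:**
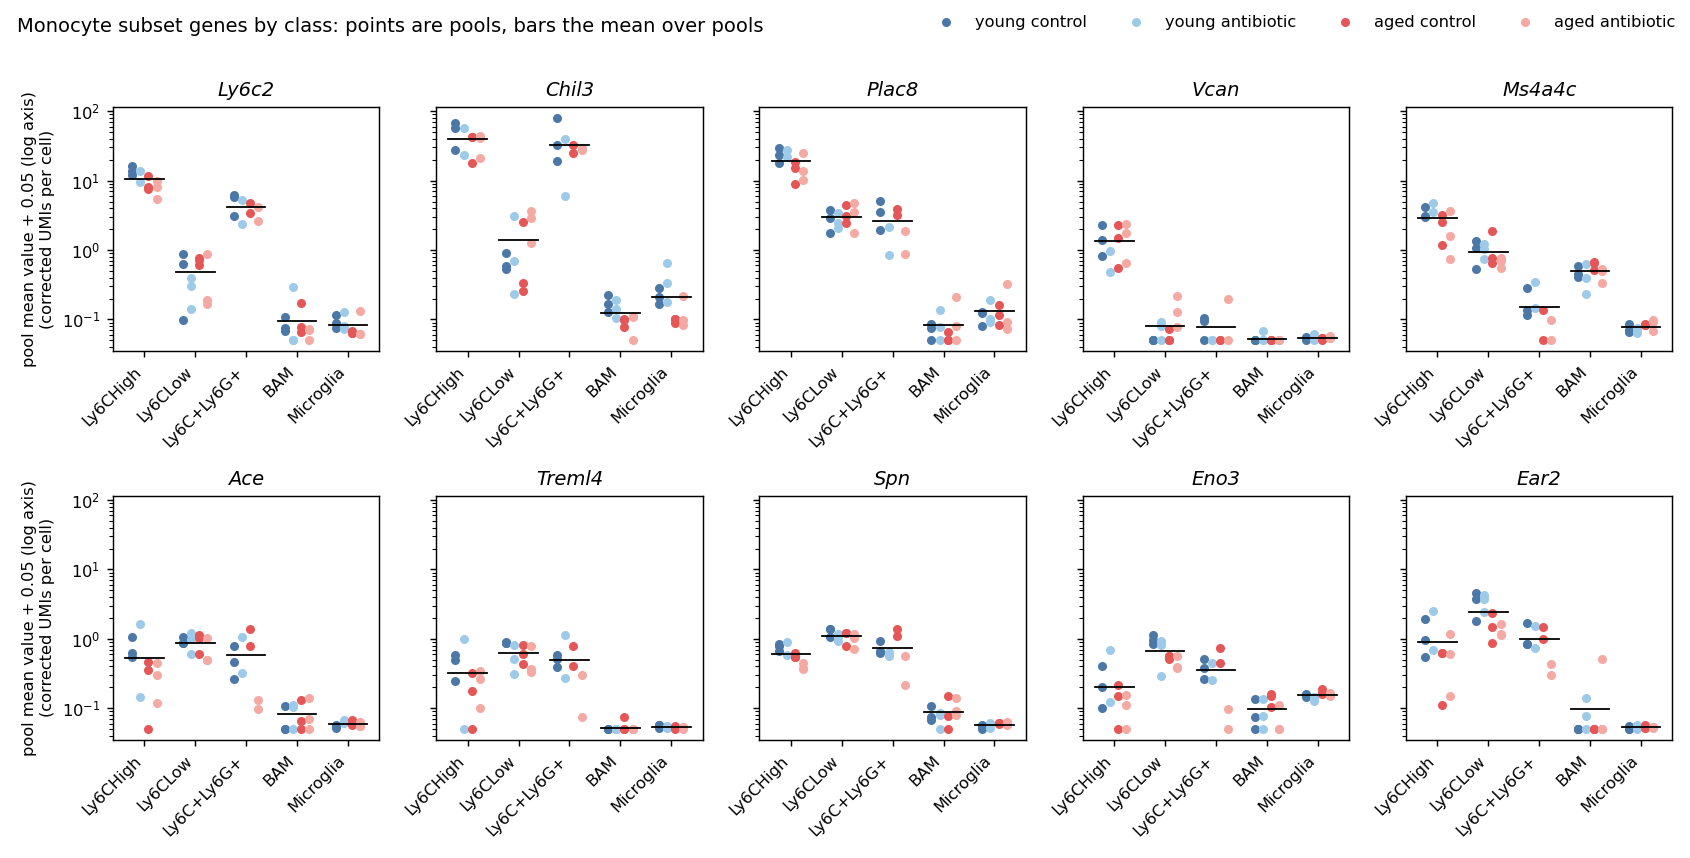
Mean value of each member per class and pool, plus 0.05 on a log axis, with 1 point per pool coloured by group and a black bar at the mean over pools. Ly6c2, Plac8, Vcan and Ms4a4c pools of Ly6CHigh lie above nearly all pools of the other classes, Chil3 is as high in Ly6C+Ly6G+, and the nonclassical members overlap between Ly6CLow, Ly6C+Ly6G+ and Ly6CHigh.

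Within pools, the difference between Ly6CHigh and Ly6CLow had a uniform direction for the classical members. In 11 of 11 pools that held both classes, Ly6CHigh was above Ly6CLow for Ly6c2, Chil3, Plac8, Vcan and Ms4a4c, with a mean log2 difference of 4.61 ± 1.16, 5.47 ± 1.35, 2.66 ± 0.82, 4.05 ± 0.96 and 1.58 ± 0.76 on the log2(value + 0.05) scale. Spn and Eno3 were higher in Ly6CLow in 11 of 11 pools, by a mean log2 difference (Ly6CHigh minus Ly6CLow) of -0.89 ± 0.36 and -1.96 ± 0.91. Ace, Treml4 and Ear2 were higher in Ly6CLow in 10 of 11 pools. The exception for Ace (0.69) and Treml4 (0.93) was young antibiotic pool 1 with 14 Ly6CHigh cells, and for Ear2 (0.03) aged antibiotic pool 1.

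The average over Ly6CLow hid a split between the deposited clusters, which the authors numbered and which may rest on these same genes, so the following values are a description. Cluster 6 held 205 of the 389 Ly6CHigh cells and 103 of the 634 Ly6CLow cells. The Ly6CLow cells of cluster 6 were 16.2% of their class and carried 82.7% of its summed Ace value, 81.5% of Treml4, 82.2% of Eno3, 57.0% of Spn and 45.1% of Ear2. Per cell they averaged 4.14 for Ace, 2.87 for Treml4, 3.68 for Spn, 3.04 for Eno3 and 6.17 for Ear2.

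Compared inside cluster 6 over the 11 pools of each class that held at least 5 such cells, 9 of the 10 members did not overlap between the classes. The share of all genes without overlap was not computed, so the count does not set the members apart from other genes. Ace was 6.92-fold, Treml4 8.02-fold, Spn 5.64-fold, Eno3 15.2-fold and Ear2 5.65-fold higher in the Ly6CLow cells. Ly6c2 was 34.0-fold, Chil3 20.2-fold, Vcan 52.0-fold and Ms4a4c 4.02-fold higher in the Ly6CHigh cells. Plac8 was the exception. It averaged 26.6 ± 4.63 in Ly6CHigh and 13.4 ± 7.32 in Ly6CLow cells of cluster 6, and the pools, from 20.7 to 35.2 and from 5.30 to 28.8, overlapped. The 1 pool of each class left out held 4 such cells. With these pools 3 more members overlapped: Ace (4.0) and Treml4 (1.75) of the Ly6CHigh cells reached the Ly6CLow range, and Vcan (1.0) of the Ly6CLow cells reached the Ly6CHigh range.

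The other Ly6CLow clusters carried the members in part. Cluster 3, with 316 cells the largest, had little Ace (0.133), Treml4 (0.0949) and Eno3 (0.133) but kept Ear2 at 2.26 and Ms4a4c at 1.52, and its 10 dendritic markers summed to 388 per cell. That cluster also held 324 BAM cells, where Ear2 averaged 0.0494 and Ms4a4c 0.617. Cluster 7 (52 cells) carried Ly6c2 at 3.37 and Spn at 1.58 with the other 8 members at or below 0.154, and its T and NK cell markers summed to 26.25 against 0.0777 in cluster 6. It held 61.2% of all Ly6c2 value of the class. Cluster 9 (41 cells, 40 of them aged) had 9 of 10 members at or below 0.0732 and Chil3 at 0.171, beside a sum of 21.5 over the 4 innate lymphoid markers.

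Ly6CHigh was also mixed. Cluster 1 held 109 of its cells, 105 of them aged, at a median of 577 raw UMIs. There Ly6c2 averaged 2.72, Chil3 2.94 and Plac8 6.00, against 15.1, 59.3 and 26.6 in cluster 6. The Ly6C antibody did not follow this: the aged cells of cluster 1 carried 1253 Ly6C tags on average and the aged cells of cluster 6 carried 363. Cluster 4 (25 cells) had Chil3 at 103, Vcan and Ms4a4c at 0 and a neutrophil marker sum of 2079 per cell, close to the 2378 of the Ly6C+Ly6G+ cells in the same cluster.

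**Figure D2:**
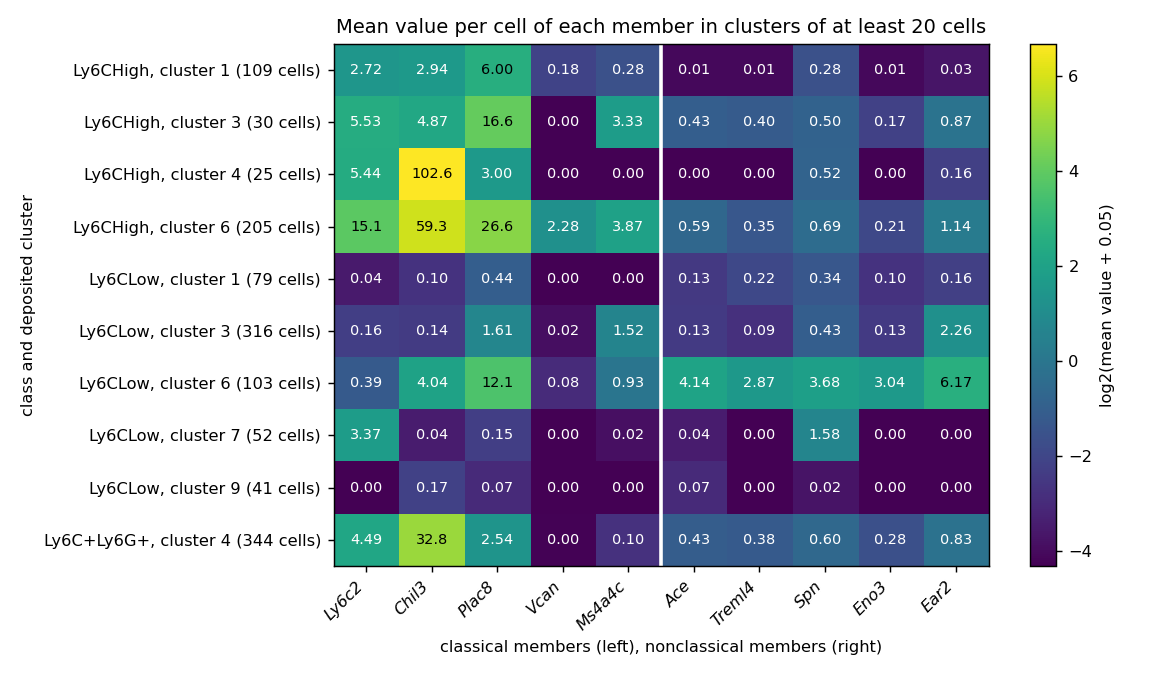
Mean value per cell of each member (columns) in each deposited cluster with at least 20 cells of Ly6CHigh, Ly6CLow or Ly6C+Ly6G+ (rows), printed in the cell and coloured as log2(mean value + 0.05). The nonclassical members are highest in the 103 Ly6CLow cells of cluster 6, and Vcan in the 205 Ly6CHigh cells of cluster 6.

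Cells were then sorted by how many members they showed, calling a set present where at least 2 of its 5 genes were above 0. In Ly6CHigh, 222 of 389 cells showed the classical set alone, 68 both sets, 3 the nonclassical set alone and 96 neither. In Ly6CLow, 80 of 634 cells showed the nonclassical set alone, 89 both, 52 the classical set alone and 413 neither. In Microglia 98.9% and in BAM 95.3% showed neither. Every Ly6CHigh and Ly6CLow cell of cluster 6 showed at least 1 set, and 64 of its 103 Ly6CLow cells showed both.

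The cells with both sets were not midway in all members. In Ly6CLow they averaged 13.5 for Plac8 and 5.45 for Chil3 but 0.337 for Ly6c2 and 0.101 for Vcan, beside 3.43 for Ace. In Ly6CHigh they averaged 10.6 for Ly6c2 and 49.5 for Chil3, near the 13.6 and 51.9 of the cells with the classical set alone, together with 1.97 for Ace and 3.01 for Ear2. The summed haemoglobin genes averaged 98.3 per cell in the both-set cells of Ly6CHigh and 92.2 in those of Ly6CLow. They averaged 2.21 and 8.25 in the cells with only the classical or only the nonclassical set. The Ly6CLow cells with neither set stood at 25.0. Cluster 6 held 58 of the 68 and 64 of the 89 both-set cells. The haemoglobin sums over all its Ly6CHigh and Ly6CLow cells were 16.7 and 6.70, so the both-set means may rest on few cells. The B cell markers, led by Igkc, summed to 67.5 in the Ly6CLow cells with the nonclassical set alone, 42.2 in those with both sets and 1.95 in those with neither. Clusters 6 and 3 held 36 and 35 of the 80 cells with the nonclassical set alone, and 64 and 17 of the 89 with both. The B cell markers summed to only 1.13 and 0.585 per Ly6CLow cell of these clusters, so the 2 high means came mostly from the few cells outside them. How doublets were treated is not given in the sources used here, no doublet caller was run, and the part of 2 cells sharing a droplet in these values was not tested.

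The nonclassical set was also seen in the neutrophil class. Of 352 Ly6C+Ly6G+ cells, 57 showed both sets, all 57 in cluster 4. They averaged 2.00 for Ace, 1.39 for Treml4, 2.35 for Spn, 1.33 for Eno3 and 3.21 for Ear2, with a neutrophil marker sum of 2604 and a median of 16054 raw UMIs. The 181 cells with the classical set alone had Ace at 0.0166 and Eno3 at 0, a neutrophil marker sum of 3228 and a median of 10479 raw UMIs. In both-set against these cells, Plac8 was 8.67 and 2.14, the dendritic sum 18.6 and 1.40 and the BAM sum 0.474 and 0.293. The other marker sums were lower in both-set cells. A further 10 cells showed the nonclassical set alone, with Ace at 3.2, Ly6c2 at 0 and a neutrophil sum of 376.5. The part of shared droplets or misassigned cells was not tested.

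**Figure D3:**
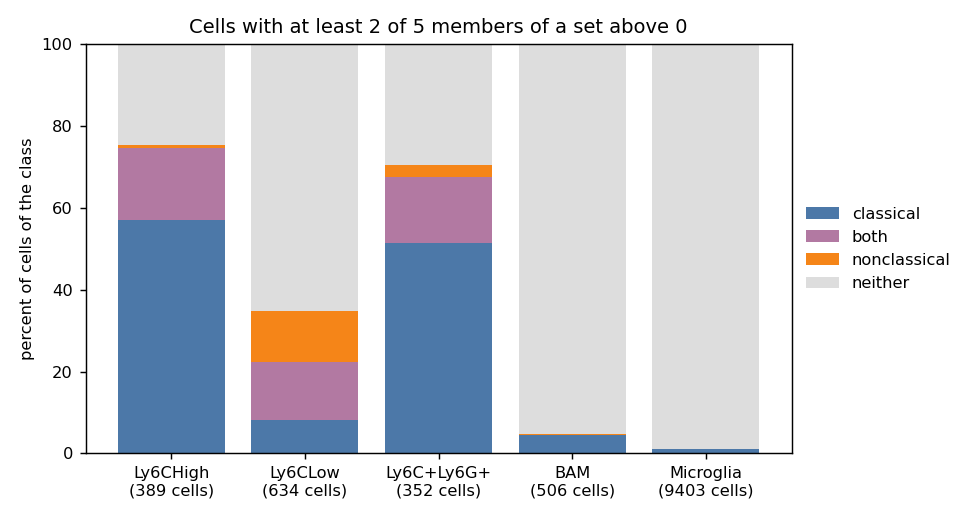
Percent of the cells of each class in which at least 2 of 5 members were above 0 for the classical set alone, both sets, the nonclassical set alone or neither. Ly6CLow is the class with the most cells of the nonclassical set alone (12.6%), while 65.1% of its cells show neither set.

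The members were seen in lymphocyte classes too. Ly6c2 averaged 3.76 ± 2.54 in the CD8+ class over 11 pools, above 0 in 40.9% of cells, and 1.63 ± 1.08 in ILCs. The BCells class carried Plac8 at 3.96 ± 1.60, with 54.2% of cells above 0, and Chil3 at 2.47 ± 1.95 with 12.1%. S100a8, a neutrophil gene, averaged 23.1 in the same class, and its part in the Chil3 value was not tested. Spn was above 0 in 42.7% of CD8+ cells and 38.8% of Ly6CLow cells. For Ly6c2, its near-identical neighbour Ly6c1 was counted apart and averaged 0.0771 in Ly6CHigh and 0.111 in BAM. Chil4 was listed at 0 in all 9 classes compared, and Ear1 averaged at most 0.00284, so nearly all values stood under Chil3 and Ear2. How reads shared by such copies were assigned is not given in the sources used here.

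Over 56 points, 1 per pool and class, the members of a set varied together. These points share libraries and depth, and the correlations are a description. Within the nonclassical set Pearson's r on the log2(value + 0.05) scale ran from 0.66 to 0.95 over 10 pairs, highest for Ace with Treml4. Within the classical set it ran from 0.37 (Chil3 with Ms4a4c) to 0.94 (Chil3 with Ly6c2). Between the sets it ran from -0.13 (Eno3 with Vcan) to 0.85 (Plac8 with Spn) over 25 pairs. Of 8871 genes, those most like the classical mean were Gm9733 (r = 0.95), Hopx (0.94), AI839979 (0.94), F10 (0.94) and Oaz1 (0.94). Those most like the nonclassical mean were Adgre4 (0.95), Dusp5 (0.94), Bhlhe40 (0.92), Cd244 (0.92) and Ptprc (0.92).

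The Ly6C antibody gave another readout of the cells in which Ly6c2 was measured. In the young well, Ly6CHigh pools carried 2124 ± 524 Ly6C tags per cell (5 pools), Ly6C+Ly6G+ pools 588 ± 72.0, Ly6CLow pools 237 ± 6.55 and Microglia 220 ± 1.69. In the aged well, where antibody totals were lower in all classes, the values were 721 ± 310, 444 ± 480, 23.9 ± 3.25 and 29.2 ± 4.71. Ly6CHigh over Ly6CLow was 8.96-fold in the young and 30.2-fold in the aged well, and 11.9-fold and 9.76-fold when tags were taken as a share of each cell's tags. Single cells of Ly6CHigh and Ly6CLow did not overlap in Ly6C tags within a well. In the young well the highest Ly6CLow cell had 401 tags and the lowest Ly6CHigh cell 426, and in the aged well 97 and 111. How the classes were gated is not given in the sources used here, and they may have been cut on this tag. The separation and the ratios between these classes are therefore a description and no separate check of the class names. The Ly6CLow level was at that of Microglia, 1.08-fold in the young and 0.817-fold in the aged well. As a share of tags it was lower than in Microglia, at 0.169-fold and 0.208-fold.

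**Figure D4:**
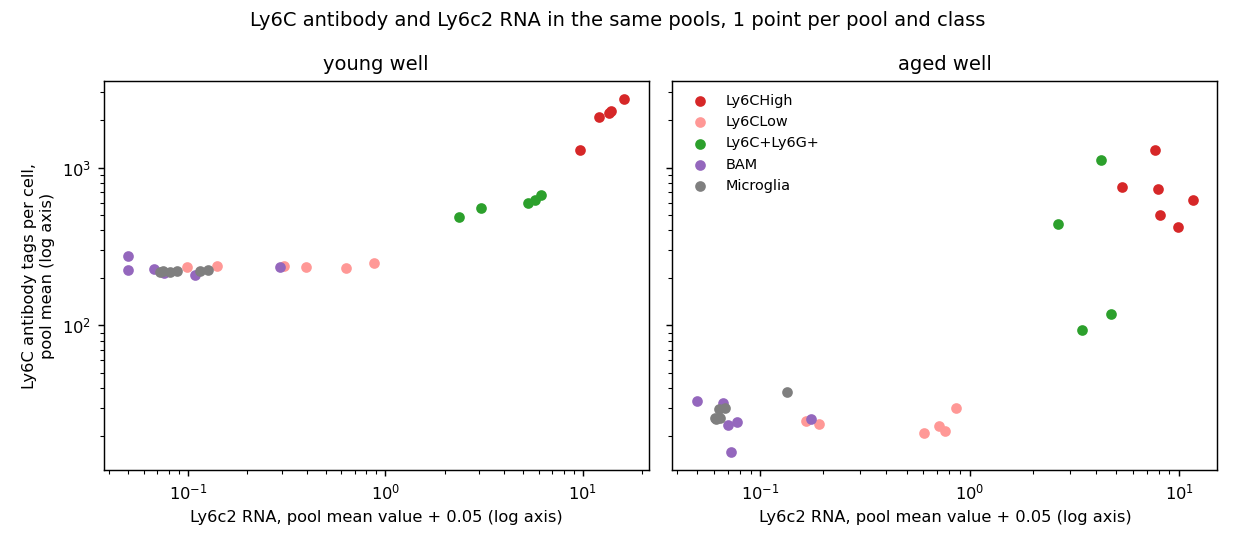
Ly6C antibody tags per cell against the Ly6c2 RNA value plus 0.05 (both log axes), 1 point per pool and class, young well left and aged well right. In the young well all 5 Ly6CHigh pools are above all other pools on both axes, and in the aged well 2 Ly6C+Ly6G+ pools reach the tag level of Ly6CHigh.

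The study's question was whether depletion of the gut microbiota, and age, changed these cells. For each class, log2(pool mean + 0.05) of every gene with a mean of at least 0.05 was fitted in limma with all 4 groups, and p-values were adjusted over all genes of a class and contrast (Benjamini-Hochberg, threshold 0.05). All 10 members could be tested in Ly6CHigh, 9 in Ly6CLow and in Ly6C+Ly6G+ (not Vcan), 2 in BAM (Chil3 and Ms4a4c) and 3 in Microglia (Chil3, Plac8 and Eno3). In bulk values of a class, fewer cells of a kind and less RNA per cell cannot be told apart.

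In Ly6CHigh, limma called 0 of 10 members for antibiotics (in young, in aged, averaged over the ages, or as the difference between the ages), and 0% of the 8190 genes tested in each. At an unadjusted p under 0.05 it was 0 members in each of the 4, against 3.64%, 2.22%, 3.21% and 2.48% of all genes. The group means for Ly6c2 were 13.9 ± 2.07 in young control, 11.7 ± 2.93 in young antibiotic (2 pools), 9.07 ± 2.18 in aged control and 7.70 ± 2.29 in the aged antibiotic group. These antibiotic differences were within the spread of the pools.

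By age, limma also called 0 of 10 members of Ly6CHigh in control pools and 0 of 10 in antibiotic pools, again with 0% of genes called. At an unadjusted p under 0.05 there were 3 members in control (Ly6c2, Plac8 and Ace), against 12.8% of all genes, and 4 in antibiotic pools (Ly6c2, Plac8, Ms4a4c and Spn), against 10% of all genes. Plac8 in controls was 29.4, 17.6 and 23.2 in the young pools and 9.0, 15.0 and 18.2 in the aged pools. Only the highest aged value passed the lowest young one. The log2 difference, aged minus young, was -0.76 (SE 0.29, adjusted p = 0.331), and -0.63 for Ly6c2 (SE 0.233, adjusted p = 0.327). With only cells of at least 2000 UMIs these were -0.16 and -0.23. Within cluster 6 they were -0.05 and 0.05. Leaving out 1 pool at a time kept both uncalled. Marker lists of other cells moved in both directions in aged against young Ly6CHigh pools, with 0 genes called. In control and antibiotic pools the medians were -1.06 and -0.90 for the dendritic markers and -1.69 and -2.16 for the haemoglobin genes. They were 0.44 and -0.22 for the innate lymphoid markers and positive for the other lists tested. Of 8 microglia markers 7 were at an unadjusted p under 0.05 in control and 7 in antibiotic pools, with medians of 2.08 and 2.23 on the log2 scale beside -0.32 and -0.41 over all genes. The median of 9 neutrophil markers was 1.63 in control pools, with 4 at an unadjusted p under 0.05, and 1.05 in antibiotic pools, with 0. Their part in the members' differences was not tested.

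Vcan went the other way in the antibiotic pools of Ly6CHigh, without being called. It was 0.429 and 0.902 in young antibiotic and 2.29, 1.68 and 0.606 in aged antibiotic pools, a log2 difference of 1.04 (SE 0.58, adjusted p = 0.535). Within cluster 6, a subset chosen after the data were seen, Vcan rose by 1.90 (adjusted p = 0.0359), 1 of 4 genes called there among 8221 tested (0.0487%). There the 2 young pools had 0.667 and 1.12 and the 3 aged pools 3.67, 4.00 and 2.61, with no overlap.

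In Ly6CLow, limma called 0 of 9 members for antibiotics in any of the same 4 forms, and 0% of 8613 genes in each. At an unadjusted p under 0.05 it was 1 in young (Treml4, against 4.24% of genes), 1 in aged (Chil3, 6.21%), 2 over both ages (Treml4 and Eno3, 6.1%) and 0 for the difference (4.97%). Treml4 was 0.810, 0.829 and 0.840 in young control and 0.465, 0.758 and 0.265 in young antibiotic pools, so the groups did not overlap, with a log2 difference of -0.79 (SE 0.35, adjusted p = 1). Chil3 was 0.286, 0.208 and 2.5 in the aged controls and 3.58, 2.86 and 1.2 in the aged antibiotic pools, a log2 difference of 1.97 (SE 0.769, adjusted p = 0.75), with an overlap at the third control pool. Over all pools, 46.3% of the summed Chil3 value of Ly6CLow lay in its 0.473% of cells in neutrophil cluster 4, whose part in this difference was not tested.

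By age, Ear2 was the member of Ly6CLow that passed. In antibiotic pools it was 3.70, 4.27 and 2.39 in young and 1.10, 1.59 and 1.14 in aged mice, with no overlap. It fell by 1.38 on the log2 scale (SE 0.339, adjusted p = 0.0443), 1 of 9 members called against 1.95% of all genes (168 of 8613), and 1 at an unadjusted p under 0.05 against 14%. In control pools it was 3.71, 1.76 and 4.46 in young and 2.31, 0.819 and 1.44 in aged mice, a log2 difference of -1.11 (SE 0.339, adjusted p = 0.128), with 0 of 9 members called against 0.755% of genes and 2 (Eno3 and Ear2) at an unadjusted p under 0.05 against 16.2%.

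The Ear2 call did not hold under all settings. With cells of at least 2000 UMIs the difference was -0.92 (adjusted p = 0.574), and in cluster 6 it was -0.55 (adjusted p = 0.707). Leaving out single pools gave 5 calls of 12, with adjusted p from 0.0198 to 0.185, and it was lost without young control pool 1 or without any 1 of the 6 antibiotic pools. Other cell markers moved with it. In the same contrast 2 of 4 innate lymphoid genes tested, Rora and Il7r, rose by 3.51 and 2.17 on the log2 scale, and 3 of 8 dendritic genes, Cd209a, Cd74 and H2-Ab1, fell by 1.74, 0.89 and 0.78. Of 8 microglia markers 3 rose, Olfml3, Gpr34 and Tmem119, by 1.40, 1.05 and 1.03, and 6 were at an unadjusted p under 0.05, with a list median of 0.80. Of 7 BAM markers 1 rose, Ms4a7, by 1.62. Ccr2, the receptor of classical monocytes, fell by 0.90 (adjusted p = 0.00812). Aged Ly6CLow cells made up 40 of 41 cells in cluster 9 and 70 of 79 in cluster 1. The part of these cells and markers in the Ear2 value was not tested beyond the cluster 6 value given.

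In Ly6C+Ly6G+, limma called 0 of 9 members in each of the 6 contrasts, against 0.0145% of 6912 genes for antibiotics in aged mice, for their mean over the ages and for age in antibiotic pools, and 0% for the other 3. At an unadjusted p under 0.05 there were 6 of 9 members for antibiotics in aged mice, against 10.2% of genes, namely all 5 nonclassical members and Plac8. For age in antibiotic pools there were 5 (11.9% of genes), for the difference between the ages 5 (8.26%), over both ages 5 (7.75%), for antibiotics in young mice 2 (4.37%) and for age in controls 1 (2.01%).

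Ace was 1.35 and 0.739 in the 2 aged control pools and 0.0833 and 0.0488 in the 2 aged antibiotic pools, a log2 difference of -3.20 (SE 0.619, adjusted p = 0.0559). Eno3 was 0.700 and 0.391 against 0 and 0.0488, a log2 difference of -3.03 (SE 0.635, adjusted p = 0.084). Spn, Ear2 and Treml4 differed by -1.83, -1.76 and -1.91 with adjusted p of 0.295, 0.295 and 0.356. The groups did not overlap for any of the 5, but the share of all genes without overlap was not computed. The median over the 5 nonclassical members was -1.91, beside -0.32 over all genes tested. Of the 13 further nonclassical genes read below, 8 were at an unadjusted p under 0.05 here and 0 were called, with a median of -1.34. Marker lists of other cells moved in both directions here, with 0 genes called. The median of 3 haemoglobin genes was 1.43, and the 1 B cell gene tested stood at 0.03. The medians of 2 T and NK cell markers and 3 BAM markers were -0.59 and -0.16. In these 4 lists 0 genes were at an unadjusted p under 0.05. The median of 8 microglia markers was 1.19, with 4 at an unadjusted p under 0.05, and that of 5 dendritic markers 0.72, with 2. Their part in the values above was not tested. Each of these values rests on 2 pools a side with 12 to 41 cells. With pools of at least 5 cells, which adds the pools of 7 and 8 cells, Ace was -2.35 (adjusted p = 0.988) and Spn 0.03. With pools weighted by cell number Ace was called (-3.28, adjusted p = 0.0094), in a fit that called 0.0289% of all genes. It was also called without young control pool 2 or 3 or without young antibiotic pool 1, with adjusted p from 0.0258 to 0.0465, and Spn and Eno3 were called without aged antibiotic pool 3, which leaves 1 pool in that group, assumed to vary like the other groups. The difference between the ages was not called for any member in any class (0 of 33 tests, lowest adjusted p = 0.548).

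In BAM, 0 of 2 members were called in each contrast, and 0 were at an unadjusted p under 0.05. For antibiotics the genes called were 0.0224% in young and 0.123% in aged mice, 0.0559% averaged over the ages and 0% for the difference, and at an unadjusted p under 0.05 they were 5.73%, 7.45%, 7.03% and 6.16%. For age they were 0.0447% in control and 0.0783% in antibiotic pools, and 6.08% and 7.86% unadjusted. Ms4a4c was 0.431 ± 0.0884 in young control and 0.560 ± 0.0886 in aged control pools, a log2 difference of 0.35 (SE 0.316, adjusted p = 0.905).

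In Microglia, where 475 to 1186 cells stood behind each pool, 0 of 3 members were called for antibiotics in young mice (0.137% of 8759 genes), in the aged (3.23%), averaged over the ages (5.4%) or for the difference (0%). At an unadjusted p under 0.05 there were 0 in each, against 10.6%, 18.4%, 21.1% and 6.61% of genes. By age in antibiotic pools, Chil3 was called, 1 of 3 members against 6.15% of genes, and 1 at an unadjusted p under 0.05 against 20%. It was 0.127, 0.288 and 0.590 in young and 0.0492, 0.0340 and 0.171 in aged pools, and it fell by 1.46 on the log2 scale (SE 0.347, adjusted p = 0.0167), although aged pool 3 was above young pool 1. In control pools it was 0.235, 0.157 and 0.117 against 0.0388, 0.0521 and 0.0498, a log2 difference of -1.15 (SE 0.347, adjusted p = 0.0984), with 0 of 3 called against 2.66% of genes and 1 at an unadjusted p under 0.05 against 13%.

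Neutrophil RNA moved with Chil3 in Microglia. In the same contrast 5 of 7 neutrophil genes tested fell, S100a8, Ngp, Camp and S100a9 by 2.21, 2.18, 2.01 and 1.99 on the log2 scale, and 19 of the 23 Microglia cells in neutrophil cluster 4, where Chil3 averaged 29.5, were young. In the 8041 Microglia cells of cluster 0 Chil3 averaged 0.081. The part of neutrophil RNA in the Chil3 difference was not tested. Without young antibiotic pool 3, aged antibiotic pool 1 or aged antibiotic pool 2 the call was lost (-1.0, -1.31 and -1.19, adjusted p from 0.0624 to 0.0924). Plac8 and Eno3 did not pass in Microglia, at 0.11 and 0.16 for the same contrast (adjusted p = 0.919 and 0.385).

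**Figure D5:**
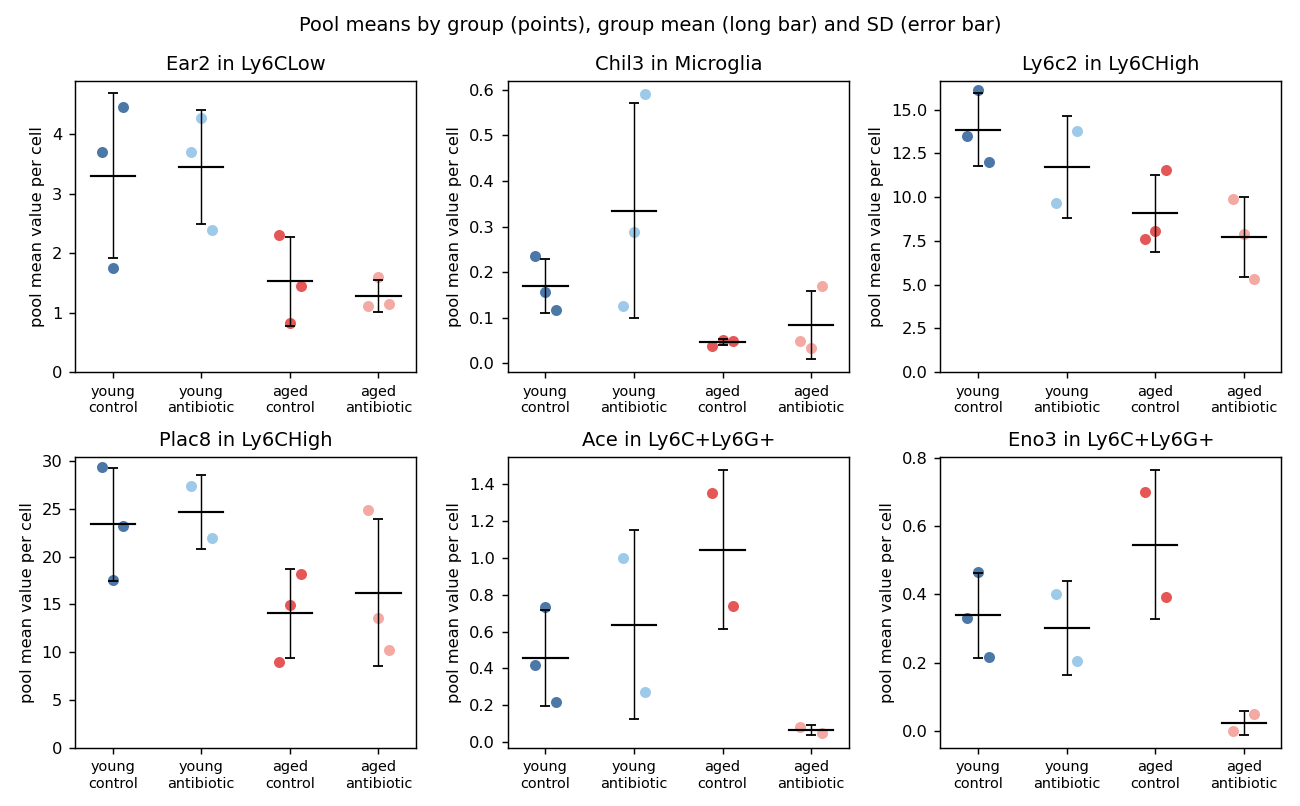
Pool means (points), group means (long bars) and SD (error bars) of 6 member and class pairs by group, with a linear value axis. Ear2 in Ly6CLow and Chil3 in Microglia are lower in aged antibiotic than in young antibiotic pools, and Ace and Eno3 in Ly6C+Ly6G+ are lowest in the 2 aged antibiotic pools without passing the test.

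Other genes of the monocyte pathway were read from 3 lists: 12 further classical genes, 13 further nonclassical genes and 8 transcription factors and receptors of the lineage. In Ly6CHigh and Ly6C+Ly6G+, 0 of these were called in any contrast. By age in Ly6CHigh control pools, 9 of 12 classical, 5 of 13 nonclassical and 4 of 8 lineage genes were at an unadjusted p under 0.05. Of all genes 12.8% were. The list medians were -0.84, -0.35 and -0.16, beside -0.32 over all genes. In antibiotic pools the counts were 2, 4 and 3, against 10% of all genes. The part of depth and of other cells in these values was not tested. In Ly6CLow 1 of 12 classical genes was called, Ccr2 as given above, in antibiotic pools by age, where 1.95% of all genes were called, with a list median of -0.20 beside -0.11 over all genes. In BAM, Ccr2 fell by 2.00 with age in control pools (adjusted p = 0.0115 in limma), 1 of 9 classical genes tested against 0.0447% of all genes. Cx3cr1, the fractalkine receptor, fell by 1.08 with antibiotics in aged mice (adjusted p = 0.0238 in limma), 1 of 10 nonclassical genes tested against 0.123% of all genes. Cx3cr1 averaged 18.7 in Microglia and 8.01 in BAM. In the same BAM contrast 8 of 8 microglia markers were at an unadjusted p under 0.05, with 2 called lower and 0 higher. Their median was -1.15, beside -0.09 over all genes. The innate lymphoid median was -0.20, and those of the other cell marker lists tested were positive. The part of microglial RNA in the Cx3cr1 difference was not tested.

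In Microglia, by age in antibiotic pools, 2 of 8 lineage factors and receptors rose and 3 of 8 fell, where 6.15% of all genes were called. Cebpb and Nr4a1 rose by 0.40 and 0.49, and Klf2 and Klf4 fell by 0.49 and 0.35. Nr4a1 is also on the nonclassical list and was the 1 gene of its 6 tested that was called. With age in controls Klf4 and Klf2 fell by 0.72 and 0.59, 2 of 8 against 2.66% of all genes. Irf8 fell by 0.34 with antibiotics in aged mice (adjusted p = 0.0061), 1 of 8 against 3.23%, and by 0.26 over both ages, 1 of 8 against 5.4%. Of 4 classical genes tested in Microglia, Lyz2, which encodes lysozyme, rose with age by 0.64 in control and 0.73 in antibiotic pools, and Ifitm6 fell by 1.18 in antibiotic pools.

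The share of cells that showed the set of their own class was lower on average in aged pools. In Ly6CHigh the classical set was present in 93.2% ± 7.85 of cells in young control, 92.9% ± 10.1 in young antibiotic (2 pools), 71.0% ± 5.52 in the aged controls and 60.2% ± 9.20 in the aged antibiotic pools, so all young pools were above all aged pools, and the aged cells were the shallower ones. The nonclassical set in Ly6CLow was present in 31.3% ± 2.82, 32.1% ± 6.62, 21.2% ± 3.91 and 23.1% ± 10.1 in the same order, with an overlap between young and aged antibiotic pools. These shares carry no test here.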

How the data were processed

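RNA and antibody tags were read from the same cells in 12 pools of brain immune cells. Cell Ranger 3.0.2, Seurat 3.0.1 and the build mm10 are named in the submitters' processing notes, without their roles. The authors deposited RNA as SCTransform corrected UMI values, used here as a score per gene and cell, since their sum per cell equals the normalized total in all 13052 cells. The authors also deposited antibody tag counts and raw UMI counts per cell, and their own classes, clusters and hashtag calls. Pools held 760 to 1590 cells, 5745242 to 13742781 raw UMIs and 428724 to 4052945 tags. The table has 34 antibodies and the labels name 31. A further 34 metadata columns were not used.

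Values were averaged per pool and class and fitted as log2(mean + 0.05) in limma 3.58.1 (R 4.3.3), with a trended prior, all 4 groups and genes with a mean of at least 0.05. P-values were adjusted by Benjamini-Hochberg over all genes of a class and contrast. The fold changes understate those of low genes, and p-values measure only the spread between these pools. The script was tested on simulated data. Other tables were made in Python 3.11.15. All 10 members are named in every class, and of the other lists the genes past the threshold, at most 4 per list and contrast, by size; genes of other cells are named only beside a member they moved with. Which of their lists to show was chosen after their values were seen, as was cluster 6. The members and lists were chosen with earlier results of these data known. An exact permutation test of the set shares between groups had been planned and was run once; it is not reported, because it would give a p-value for a score over the chosen members. Alternatives changed the pseudocount, filter, cell minimum, scale, depth, weights, hashtag block and pools.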

Additional observations from a re-analysis of the deposited data

How the results depend on the processing

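Limits were the number of pools (2 or 3 a group) and the depth of aged Ly6CHigh cells. Of 594 counts of called members over all alternatives, 563 were unchanged and 31 moved. In Ly6CLow by age in antibiotic pools the count went from 1 to 0 with a pseudocount of 0.01, no filter, cells of at least 2000 UMIs, weights by cell number or cluster 6 alone, and in Microglia to 0 with no filter. The count became 1 with the mean of log2(value + 1) by age in control pools in Ly6CHigh, Ly6CLow and Microglia, and in Ly6C+Ly6G+ with weights for antibiotics in aged mice and over both ages. In cluster 6 it became 1 in Ly6CHigh (Vcan). Leaving out single pools gave 0 to 1 in Ly6CLow by age in antibiotic pools, 0 to 1 in Microglia by age in control and in antibiotic pools, and 0 to 2 in Ly6C+Ly6G+ for antibiotics in aged mice. With the hashtag number as a replicate block the count by age in control pools became 1 in Ly6CLow (Ear2, adjusted p = 0.0294 in limma) and 1 in Microglia (Chil3, adjusted p = 0.00371). Same-numbered pools correlated from -0.09 to 0.11, so the numbers were not taken to pair them. Reversed values were Spn in Ly6C+Ly6G+ with pools of at least 5 cells (log2 difference 0.034) and Ly6c2 in Ly6CHigh within cluster 6 (0.053). With a pseudocount of 0.5 the difference of Ly6CHigh and Ly6CLow was 1.67 for Vcan and -0.74 for Eno3. The share of cells with a set moved with the rule: with 1 member it was 51.4% (nonclassical, Ly6CHigh), 56.1% and 58.5% (classical and nonclassical, Ly6CLow) and 45.1% (nonclassical, Ly6C+Ly6G+), with 3 members 6.53% (classical, Ly6CLow) and 42.4% (classical, Ly6C+Ly6G+), and 13.3% for the classical set in Ly6CLow after thinning. As a share of tags the aged Ly6C ratio was 9.76. The number of genes called in Ly6CLow by age moved from 168 in antibiotic and 65 in control pools to 76 and 36 with no filter, 458 and 320 with the mean of log2(value + 1), 5 and 0 with deep cells and 0 and 1 in cluster 6, and in antibiotic pools to 105 with weights and 104 with the block. In Microglia no filter gave 105 for antibiotics in aged mice (283 otherwise), 209 averaged over the ages (473) and 145 by age in control pools (233), and deep cells gave 459, 711 and, by age in antibiotic pools, 821 (539). The mean of log2(value + 1) also gave 453 for antibiotics in aged and 60 in young mice (12 otherwise) in Microglia and 37 by age in Ly6CHigh control pools (0), and in BAM by age in antibiotic pools a minimum of 20 cells gave 36 and weights 22 (7). The causes were not tested.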
